A study of Rattus norvegicus with 31 samples.

Results

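The translation initiation factor genes are the genes whose protein products bring a ribosome, the initiator tRNA and an mRNA together at a start codon. Their members were chosen by symbol: every gene of the deposited rat table whose symbol begins with Eif and a digit from 1 to 6 was taken, which gave 52 of 20207 genes. The family was picked for description with earlier results of these data known, so counts of its members are given as description and not as independent evidence.

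RNA was sequenced from kidney cortex and colon of rats (Rattus norvegicus) in 3 groups. CAL rats had a high-salt diet with calcitriol, the active hormone form of vitamin D, HS rats were the high-salt model, and NC rats were the normal controls. The cortex had 6 CAL, 4 HS and 5 NC libraries, and the colon 6 CAL, 5 HS and 5 NC libraries. CAL and HS share the salt load, and NC had neither agent. Strain, sex, age, salt content, calcitriol dose, route and duration are not given in the sources used here. Nothing in the labels says that libraries of a group came from separate animals, so p-values measure the spread between these libraries, which may be partly technical.

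Initiation starts when the eIF2 complex, charged with GTP and the initiator tRNA, joins the small ribosomal subunit together with eIF1, eIF1A, eIF3 and eIF5. The eIF4 factors read the cap of the mRNA and unwind it, so that the small subunit can scan to the start codon. eIF5 then triggers GTP hydrolysis on eIF2, eIF5B joins the large subunit, and eIF2B reloads eIF2 with GTP. Control acts at both ends: eIF2 kinases phosphorylate the alpha subunit of eIF2 in stress and so block eIF2B, and eIF4E-binding proteins hold the cap-binding factor eIF4E until mTORC1 phosphorylates them. Kidney tubule cells make large amounts of transporters and enzymes, and the colon epithelium renews itself continually, so both tissues rely on steady translation.

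The 52 genes held a similar small share of each library. They took 0.584% to 0.646% of all counts in CAL cortex, 0.599% to 0.650% in HS cortex and 0.573% to 0.610% in NC cortex. In the colon the shares were 0.609% to 0.806% in CAL, 0.707% to 0.83% in HS and 0.681% to 0.736% in NC. The groups overlapped within each tissue, and the highest cortex share lay inside the range of the CAL colon libraries. Sequencing was shallow, with 289529 to 2265164 counts in a cortex library and 267976 to 918820 in a colon library, so low members were counted with few reads. A count of 0 allows a level of up to 1.32 to 11.2 counts per 1e6 counts (CPM), depending on the library, with 3 counts as the limit. Levels of single genes below are CPM after trimmed-mean (TMM) scaling. That limit covers counting error only.

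Tissue labels were checked on marker genes. The summed level of 8 proximal tubule markers was 11752 to 16213 CPM in cortex libraries and 34.6 to 155 CPM in colon libraries. Colonocyte markers, 9 genes, summed to 156 to 245 CPM in the cortex and to 12801 to 23934 CPM in the colon. Some libraries stood apart. Immune markers summed to 16734 and 16233 CPM in HS colon replicates 3 and 4, against 1421 to 6676 CPM in the other HS colon libraries. Smooth muscle markers summed to 27584 and 18950 CPM in HS colon replicates 2 and 5, against 2536 to 4312 CPM in the other HS colon libraries. These markers summed to 4041 to 7062 CPM in CAL colon, and in NC colon to 15723, 18228 and 15123 CPM in replicates 2, 3 and 5 and to 3820 and 3476 CPM in replicates 1 and 4. Their part in the colon values was not tested. Erythrocyte markers summed to 3663 to 6836 CPM in CAL cortex, 1008 to 1806 CPM in HS cortex and 3893 to 19854 CPM in NC cortex. In bulk tissue, fewer cells of a type and less RNA per cell cannot be told apart.

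Promoter sequences show what members share around their starts. RefSeq's promoter table (GRCr8 build, 250 bases before to 50 after each start) held 1 promoter for 45 of the 52 genes, 2 for 3 genes, and 4 genes were not matched to one. Motifs were searched on both strands. The ETS core CCGGAAG was found in 17 of the 45 promoters (37.8%), against 8.75% of all 33469 promoters in the table. An E-box, CACGTG, was found in 9 (20%), against 6.42% of all promoters. The CCAAT box stood in 35.6% of the 45, against 37.5% of all promoters, and the cyclic AMP element TGACGTCA in 0 of 45, against 1.83% of all. TGATGNAA, the composite C/EBP-ATF element bound by Atf4, was in 4.44% of the 45 and 3.98% of all. The shares are of unlike sets, since the 33469 include genes with several promoters and genes not tested here. Whether the differences are particular to this family was not tested. A match is a string of letters and no evidence that a factor binds there.

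The 250 bases before the start are printed for 4 genes that differed between HS and NC cortex, with Eif5 and Eif4e higher and Eif2b2 and Eif6 lower in HS. Capitals mark matches to the motifs above that lie wholly within the printed bases.
Eif5, chr6:136410083-136410332, plus strand: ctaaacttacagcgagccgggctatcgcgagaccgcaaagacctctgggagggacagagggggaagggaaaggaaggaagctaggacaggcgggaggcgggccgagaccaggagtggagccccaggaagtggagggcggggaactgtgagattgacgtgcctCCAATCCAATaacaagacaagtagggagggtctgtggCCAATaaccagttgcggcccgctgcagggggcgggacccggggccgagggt
Eif4e, chr2:229740503-229740752, plus strand: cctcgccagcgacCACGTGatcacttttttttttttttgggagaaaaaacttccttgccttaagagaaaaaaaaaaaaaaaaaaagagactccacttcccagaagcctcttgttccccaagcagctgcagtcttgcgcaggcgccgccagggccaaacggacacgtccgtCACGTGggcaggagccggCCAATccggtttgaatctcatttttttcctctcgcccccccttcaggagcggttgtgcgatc
Eif2b2, chr6:110597729-110597978, plus strand: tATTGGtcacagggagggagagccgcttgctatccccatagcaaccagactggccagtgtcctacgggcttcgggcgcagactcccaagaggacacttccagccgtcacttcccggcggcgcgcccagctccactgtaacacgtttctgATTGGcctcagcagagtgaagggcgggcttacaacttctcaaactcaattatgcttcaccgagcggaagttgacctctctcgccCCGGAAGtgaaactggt
Eif6, chr3:164791411-164791660, minus strand: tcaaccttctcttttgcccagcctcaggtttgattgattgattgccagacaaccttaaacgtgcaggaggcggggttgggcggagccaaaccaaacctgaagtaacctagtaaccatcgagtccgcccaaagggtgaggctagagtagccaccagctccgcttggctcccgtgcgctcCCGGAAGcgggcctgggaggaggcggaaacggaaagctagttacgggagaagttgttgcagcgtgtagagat

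Eif5 carried CCAAT boxes, of which a pair lay side by side. Eif4e carried E-boxes and a CCAAT box. Eif2b2 had an ETS core close to the start with CCAAT boxes on the opposite strand, and Eif6 an ETS core. Of the 10 genes that differed in HS cortex and had 1 promoter, 2 held an E-box (Eif3a and Eif4e), 4 an ETS core (Eif1ax, Eif2b2, Eif2ak2 and Eif6) and 5 a CCAAT box, so no searched motif was common to them.

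High salt without calcitriol was accompanied in the kidney cortex by higher RNA of some initiation factor genes and lower RNA of 2 others. Most tested members did not pass the threshold. Eif1a, Eif1ax, Eif2s1, Eif2s3y, Eif3a, Eif4a2, Eif4e, Eif5 and the kinase gene Eif2ak2 were higher in HS than in NC, by 1.47-fold to 2.33-fold. Eif2b2 and Eif6 were lower, at 0.588 and 0.708 times the NC level. Of the 52 genes, 45 passed the filter on low counts in the cortex, and 11 of these 45 (24.4%) had an adjusted p under 0.05, with 9 higher and 2 lower. Among all 7524 genes tested, 11.0% passed that threshold, 7.35% higher and 3.69% lower. The test was edgeR's quasi-likelihood test with Benjamini-Hochberg adjustment over all genes tested. The median log2 fold change was 0.13 over the 45 genes and -0.01 over all genes tested. Of the 45 genes, 25 had a positive and 20 a negative log2 fold change, and 49.2% of all genes tested had a positive one. HS and NC libraries did not overlap for 11 of the 45 genes, 9 higher and 2 lower, against 13.1% of all genes tested.

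**Figure D1:**
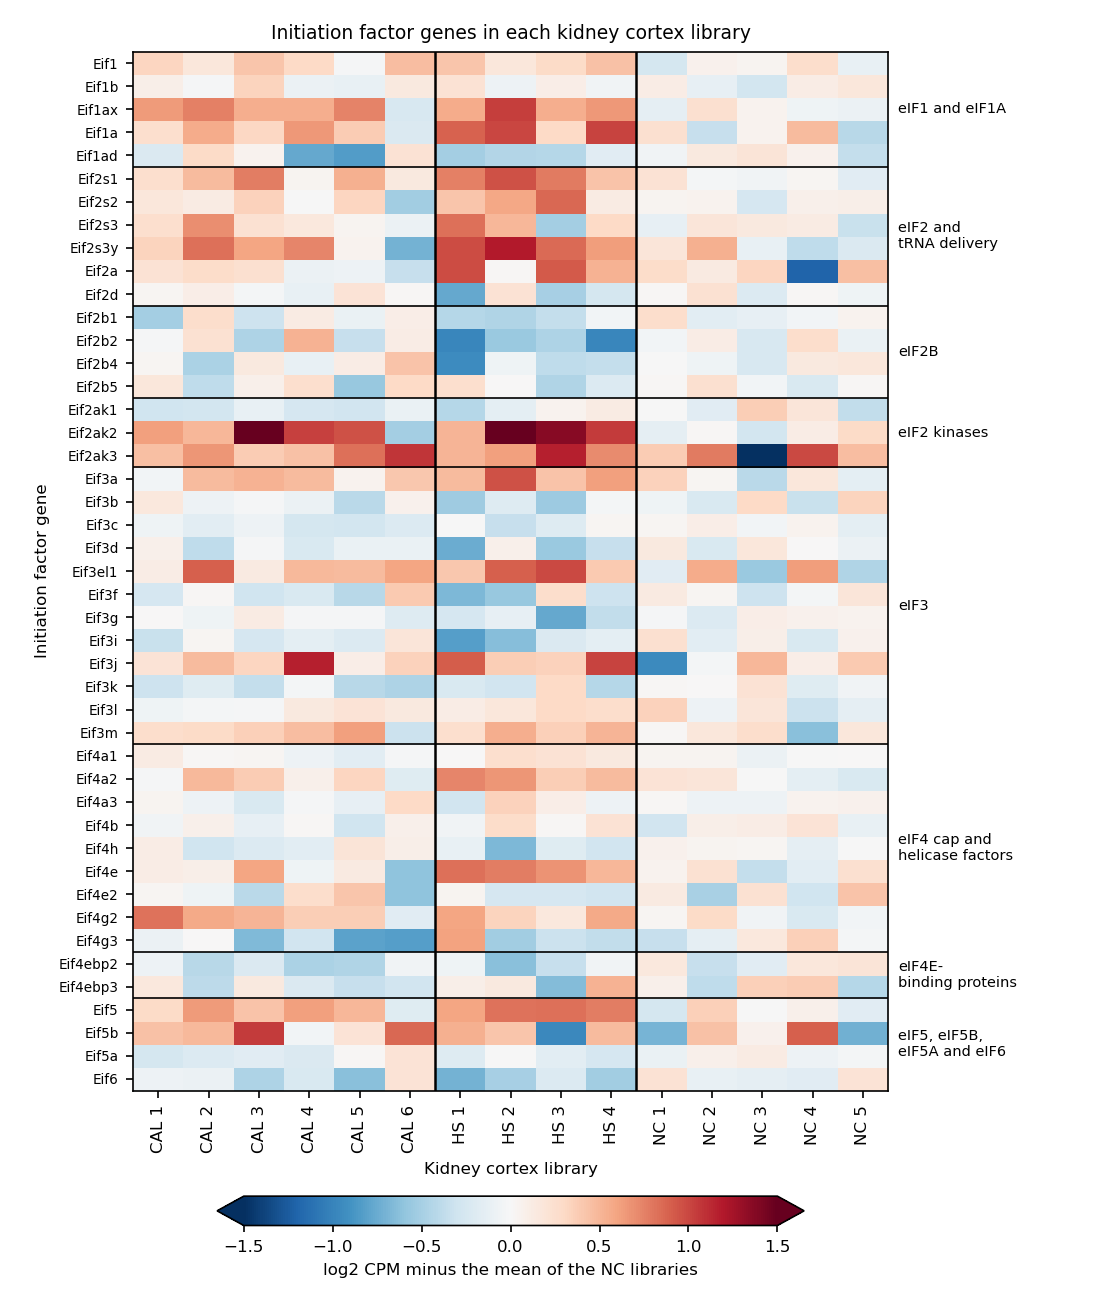
Level of 45 tested initiation factor genes in each kidney cortex library, as log2 CPM minus the mean log2 CPM of the NC libraries, with genes grouped by complex and libraries by group (6 CAL, 4 HS, 5 NC). Colours stop at 1.5 in each direction. Eif5, Eif4e, Eif1ax and Eif2s1 are red in the 4 HS columns and Eif2b2 is blue in them, while CAL replicate 6 is blue for Eif4e.

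These counts leaned on individual libraries. Without HS replicate 2 only Eif5 and Eif2b2 passed, a count of 2, and all genes past the threshold numbered 324 in place of 831. The count was 6 without HS replicate 1, which ended the calls of Eif4a2, Eif2b2, Eif4e, Eif2s3y and Eif6, and 7 without HS replicate 4, which ended those of Eif1a, Eif2b2, Eif2ak2 and Eif6. Leaving out HS replicate 3 ended the call of Eif2ak2, NC replicate 1 those of Eif2ak2 and Eif6, NC replicate 3 those of Eif3a, Eif4e and Eif2ak2, and NC replicate 5 that of Eif6. All libraries were also thinned to the depth of the shallowest, in a single random draw. Eif5 and Eif1ax then had an adjusted p of 0.0539 and 0.0541, Eif2s3y 0.107 and Eif1a 0.149, and Eif2ak2 was no longer tested. The erythrocyte markers moved with the same comparison, since 6 of 7 tested were lower in HS, and their part in it was not tested.

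Among the start-codon factors, both eIF1A genes were higher in HS. Eif1ax and Eif1a encode eIF1A, which holds the initiator tRNA in place during scanning. Eif1ax had 74.8 to 150 CPM in the 6 CAL libraries with a median of 134 CPM, 131, 182, 130 and 140 CPM in the 4 HS libraries, and 80.8, 104, 91.8, 84.8 and 83.4 CPM in the 5 NC libraries. All HS libraries lay above all NC libraries, and the CAL libraries overlapped both groups. The log2 fold change of HS over NC was 0.71 (SE 0.17, adjusted p = 0.0120). Eif1a had 57.6, 62.6, 38.6 and 63.3 CPM in HS and 36.9, 24.6, 32.4, 43.4 and 23.4 CPM in NC, so that HS replicate 3 fell inside the NC range. Its log2 fold change was 0.87 (SE 0.22, adjusted p = 0.0171). These genes are near-identical copies, so reads may be split between them and each value is uncertain. Eif1, the scanning factor that rejects wrong start codons, had 377, 317, 344 and 382 CPM in HS and 235, 295, 290, 337 and 262 CPM in NC. The groups overlapped, and the log2 fold change of 0.33 (SE 0.13, adjusted p = 0.101) did not pass.

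Among eIF2 genes, Eif2s1, which encodes the alpha subunit that the stress kinases phosphorylate, had 71.4 to 118 CPM in CAL with a median of 89.5 CPM. Its level was 117, 134, 119 and 93.1 CPM in HS, and 80.8, 68.0, 66.6, 71.0 and 61.7 CPM in NC. The HS libraries lay above every NC library, with a log2 fold change of 0.72 (SE 0.17, adjusted p = 0.00984). Eif2s3y, the Y-chromosome copy of the gene for the gamma subunit that binds GTP and the tRNA, had 111, 128, 102 and 87.1 CPM in HS and 63.8, 81.6, 52.2, 43.4 and 48.4 CPM in NC. Here too the groups were apart (log2 fold change 0.84, SE 0.23, adjusted p = 0.0221), but Eif2s3 on the X chromosome is a close copy, and reads may be split between them. Eif2s3 itself was at 0.37 (adjusted p = 0.236). Eif2s2, the gene of the beta subunit, had a log2 fold change of 0.47 (adjusted p = 0.102), with HS at 63.3 to 105 CPM and NC at 48.6 to 61.7 CPM, which do not overlap. Of the 6 genes of eIF2 and tRNA delivery, 2 passed, both higher, and 5 had a positive log2 fold change.

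Among the eIF2B genes, Eif2b2 alone passed the threshold, and it was lower in HS. eIF2B is the exchange factor that recycles eIF2. All 4 of its tested genes had a negative log2 fold change, from -0.77 to -0.09, where 49.2% of all genes tested had a positive one. Eif2b2, which encodes the regulatory beta subunit, had 63.3 to 125 CPM in CAL with a median of 90.2 CPM. It had 44.3, 59.5, 63.1 and 44.2 CPM in HS and 85.1, 94.3, 73.8, 104 and 81.7 CPM in NC. Each HS library lay below each NC library (log2 fold change -0.77, SE 0.20, adjusted p = 0.0196), and the lowest CAL library lay just above the highest HS library. Without HS replicate 1 or 4 the adjusted p was above 0.05, at most 0.0782.

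Among the eIF2 kinases, Eif2ak2 was higher in HS. It encodes PKR, the kinase that senses double-stranded RNA and is itself induced by interferon. Its level was 15.5, 36.6, 28.0 and 22.7 CPM in HS and 9.92, 11.0, 9.0, 11.8 and 13.3 CPM in NC, apart but at few reads per library. CAL ran from 7.67 to 36.2 CPM with a median of 19.0 CPM and overlapped both groups. The log2 fold change of 1.22 (SE 0.36, adjusted p = 0.0310) failed in 5 of 9 fits that left out 1 library, with adjusted p up to 0.158. Eif2ak3, the gene of the endoplasmic reticulum stress kinase PERK, had 15.5, 16.8, 24.5 and 17.9 CPM in HS and 14.2, 18.7, 1.80, 21.7 and 15 CPM in NC, where NC replicate 3 was far below the rest. It stood at 0.30 (SE 0.37, adjusted p = 0.624). Eif2ak1, the haem-regulated kinase known from red cell precursors, stood at -0.09 (adjusted p = 0.733). Eif2ak4, the amino acid sensor GCN2, was not tested in the cortex and had 2.39 to 14.0 CPM in HS and 3.6 to 10.2 CPM in NC.

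The eIF3 scaffold did not move as a unit. Of its 12 genes found here, which do not include Eif3e and Eif3h, 1 was higher and none was lower. A positive log2 fold change was seen in 5 and a negative one in 7. Eif3a, the largest scaffold subunit, had 149, 208, 144 and 164 CPM in HS and 136, 109, 81.0, 120 and 96.7 CPM in NC. These groups were apart, with HS replicate 2 well above the others (log2 fold change 0.62, SE 0.17, adjusted p = 0.0197). By contrast Eif3i, a core subunit, had 57.6, 65.6, 87.6 and 91.9 CPM in HS and 120, 90.9, 108, 86.7 and 107 CPM in NC, which overlapped, and its log2 fold change of -0.43 had an adjusted p of 0.101.

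Cap and helicase factors contributed Eif4e and Eif4a2. Eif4e encodes the cap-binding protein. Its level was 59.5 to 136 CPM in CAL with a median of 96.7 CPM, 160, 154, 144 and 128 CPM in HS, and 93.6, 105, 70.2, 80.8 and 107 CPM in NC. HS libraries were above all NC libraries (log2 fold change 0.66, SE 0.18, adjusted p = 0.0211). Eif4a2, a gene of the RNA helicase eIF4A, had 541, 514, 421 and 452 CPM in HS and 374, 369, 324, 294 and 277 CPM in NC, again apart (log2 fold change 0.56, SE 0.14, adjusted p = 0.0145). Its paralog Eif4a1 had 324 to 384 CPM in HS and 304 to 333 CPM in NC, and its log2 fold change was 0.15 (SE 0.11, adjusted p = 0.383). Eif4g2, a scaffold relative that does not bind eIF4E, had 313, 261, 231 and 307 CPM in HS and 211, 252, 200, 177 and 202 CPM in NC, which overlapped. It was at 0.41 (SE 0.16, adjusted p = 0.0897) and passed with voom and library weights (adjusted p = 0.0489). The main scaffold gene Eif4g1 was not tested, with 3.51 to 10.7 CPM in HS and 6.80 to 21.6 CPM in NC. None of the 2 tested eIF4E-binding protein genes, Eif4ebp2 and Eif4ebp3, passed (-0.25 and 0.15), and Eif4ebp1 was at 0 to 14.3 CPM in HS and 8.34 to 16.2 CPM in NC.

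Of the 4 tested genes of the eIF5, eIF5B, eIF5A and eIF6 group, Eif5 was higher and Eif6 lower in HS. Eif5, which encodes the protein that triggers GTP hydrolysis on eIF2, had 95.9 to 169 CPM in CAL with a median of 150 CPM. HS libraries had 164, 191, 193 and 185 CPM, and NC libraries 90.7, 139, 108, 114 and 96.7 CPM. All HS libraries lay above all NC libraries, at a log2 fold change of 0.72 (SE 0.16, adjusted p = 0.00731). Eif5 passed with each library left out in turn, though not in the single random draw used for thinning. Eif6, which keeps the large ribosomal subunit from joining too early, had 171, 198, 242 and 195 CPM in HS and 325, 259, 254, 248 and 324 CPM in NC. The groups did not overlap, but HS replicate 3 was within a few CPM of the lowest NC library (log2 fold change -0.50, SE 0.16, adjusted p = 0.0399). The adjusted p was above 0.05 in 5 of 9 fits that left out 1 library. Eif5a, known for its hypusine residue and for work in elongation as well, had 878, 999, 897 and 841 CPM in HS and 937, 1056, 1093, 950 and 982 CPM in NC, and its log2 fold change of -0.15 (SE 0.12) had an adjusted p of 0.411.

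**Figure D2:**
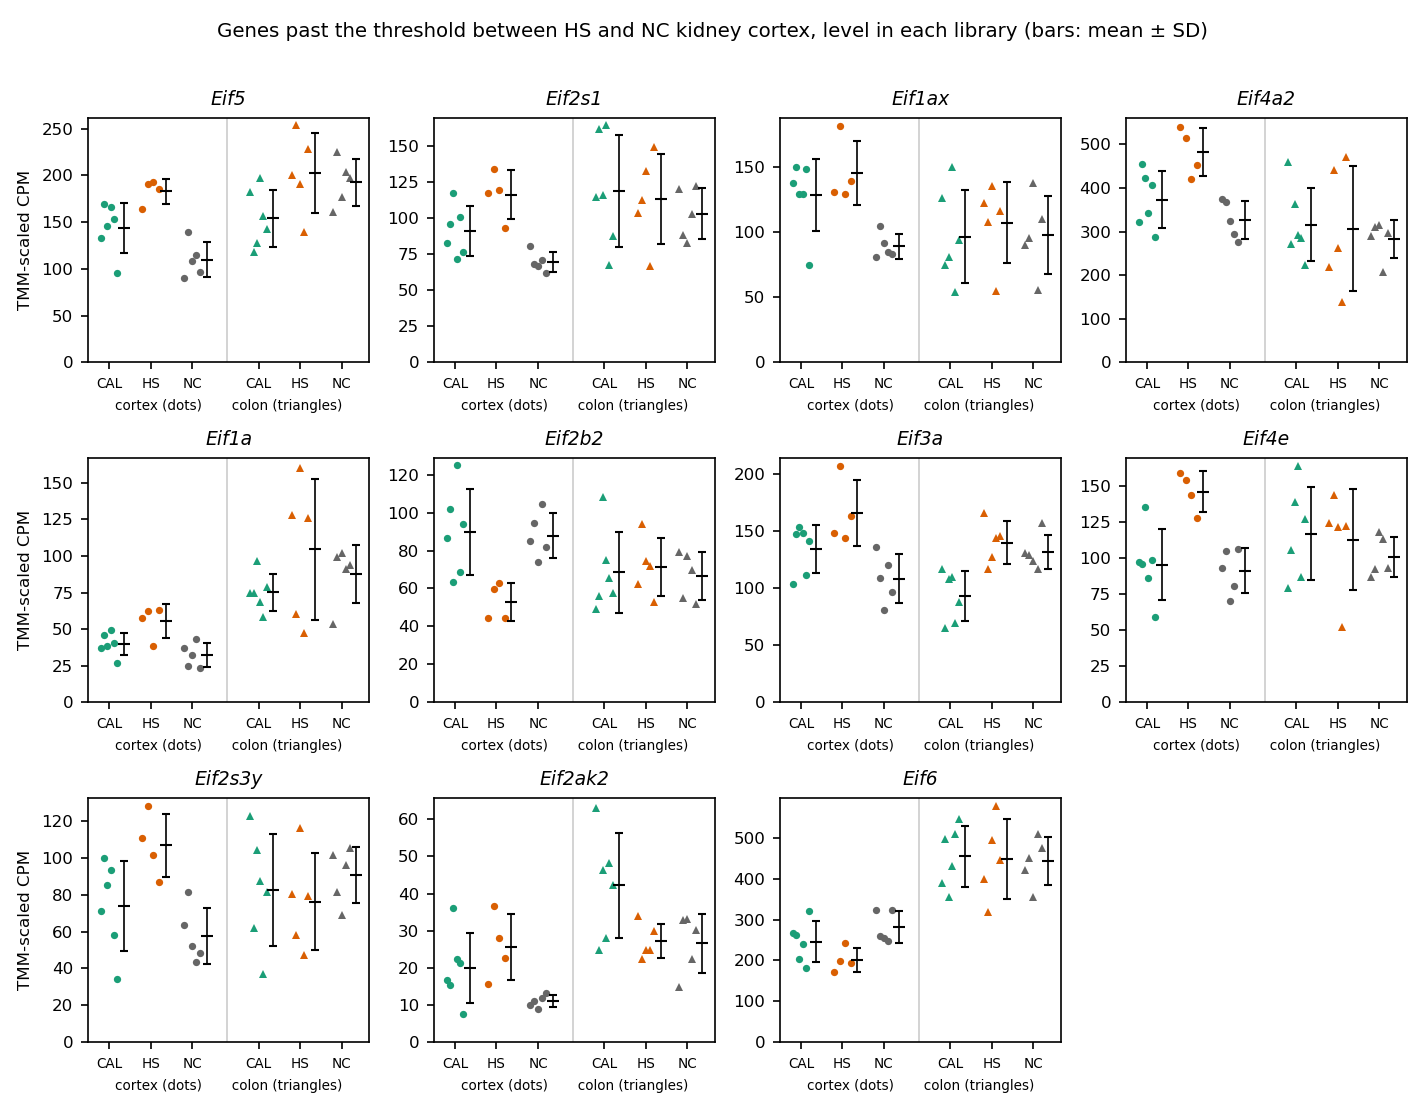
TMM-scaled CPM of the 11 genes that differed between HS and NC cortex, in each cortex library (dots) and each colon library (triangles), with the mean ± SD of each group beside them. In the cortex the HS dots of Eif5, Eif2s1 and Eif4e lie above the NC dots and those of Eif2b2 and Eif6 below. The colon HS and NC groups overlap. The genes were chosen by their cortex result and the share of all colon genes that overlap was not counted. No contrast between the tissues is read from this. CPM were scaled within each tissue.

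Other translation genes in the same comparison were counted on 5 lists, beside 7.35% of all genes tested that were higher in HS and 3.69% that were lower. Of 21 tested regulators and partners of initiation, 4 were higher and 0 lower. Ppp1cb, a catalytic subunit of protein phosphatase 1, had 183 ± 37.3 CPM in HS (n = 4) and 91.1 ± 21.4 CPM in NC (SD, n = 5), a log2 fold change of 0.99 (SE 0.17, adjusted p = 0.00119). Ppp1r15b, the subunit that directs that phosphatase to eIF2 alpha, stood at 0.66 (adjusted p = 0.0197) and Mcts1, a reinitiation factor, at 0.59 (adjusted p = 0.0299). Paip1, a partner of the poly(A)-binding protein, had 151 ± 22.4 CPM in HS (n = 4) and 75.8 ± 19.1 CPM in NC (SD, n = 5), with an adjusted p of 0.00390. The median log2 fold change of this list was 0.26, against -0.01 over all genes tested. Of 19 tested mTORC1 pathway genes, 2 were higher and 1 lower: the GTPase genes Rheb (0.61) and Rragc (0.48), and the lysosomal anchor gene Lamtor1 (-0.53). Among 11 tested targets of the integrated stress response, the programme that eIF2 kinases start through Atf4, 0 were higher and 1 was lower. That gene was Psat1, an enzyme of serine synthesis, at -0.60 (adjusted p = 0.0166). Of 22 cytosolic tRNA synthetase genes 2 were higher, Nars1 (0.54) and Dars (0.61), and of 11 elongation and termination genes 1 was lower, the ribosome rescue gene Hbs1l (-0.58). The last 3 lists, at 1 of 11, 2 of 22 and 1 of 11 genes called, were no higher than the 11.0% of all genes called, and nothing is read from them.

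Calcitriol on top of high salt gave no initiation factor gene past the threshold in the cortex. Set against HS, 0 of the 45 genes passed, and 0.758% of all genes tested did, 57 genes. At an unadjusted p under 0.05 there were 13 of the 45, 4 higher and 9 lower in CAL, against 16.2% of all genes. CAL and NC are both compared with the same HS libraries, so opposite signs in the 2 comparisons are partly built in. DESeq2 called 1 gene and voom with library weights 0. That gene, Eif2b2, had the smallest p: CAL libraries had the levels given above, higher than HS in all 6 libraries, with a log2 fold change of 0.79 (SE 0.20, adjusted p = 0.0525). Its adjusted p was 0.0195 with DESeq2, 0.0216 without a filter on low counts, 0.0308 without CAL replicate 3 and 0.0393 without CAL replicate 5. Next came Eif4e at -0.59 (SE 0.17, adjusted p = 0.0945), with CAL replicate 3 at 136 CPM inside the HS range, and Eif4a2 at -0.38 (SE 0.13, adjusted p = 0.166). Eif5 and Eif2s1 stood at -0.35 (adjusted p = 0.256) and -0.34 (adjusted p = 0.282), while Eif4g2 was at 0.02 and Eif1 at -0.05. Of the 7 tested erythrocyte markers, 4 were higher in CAL than in HS, and their part in these values was not tested.

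**Figure D3:**
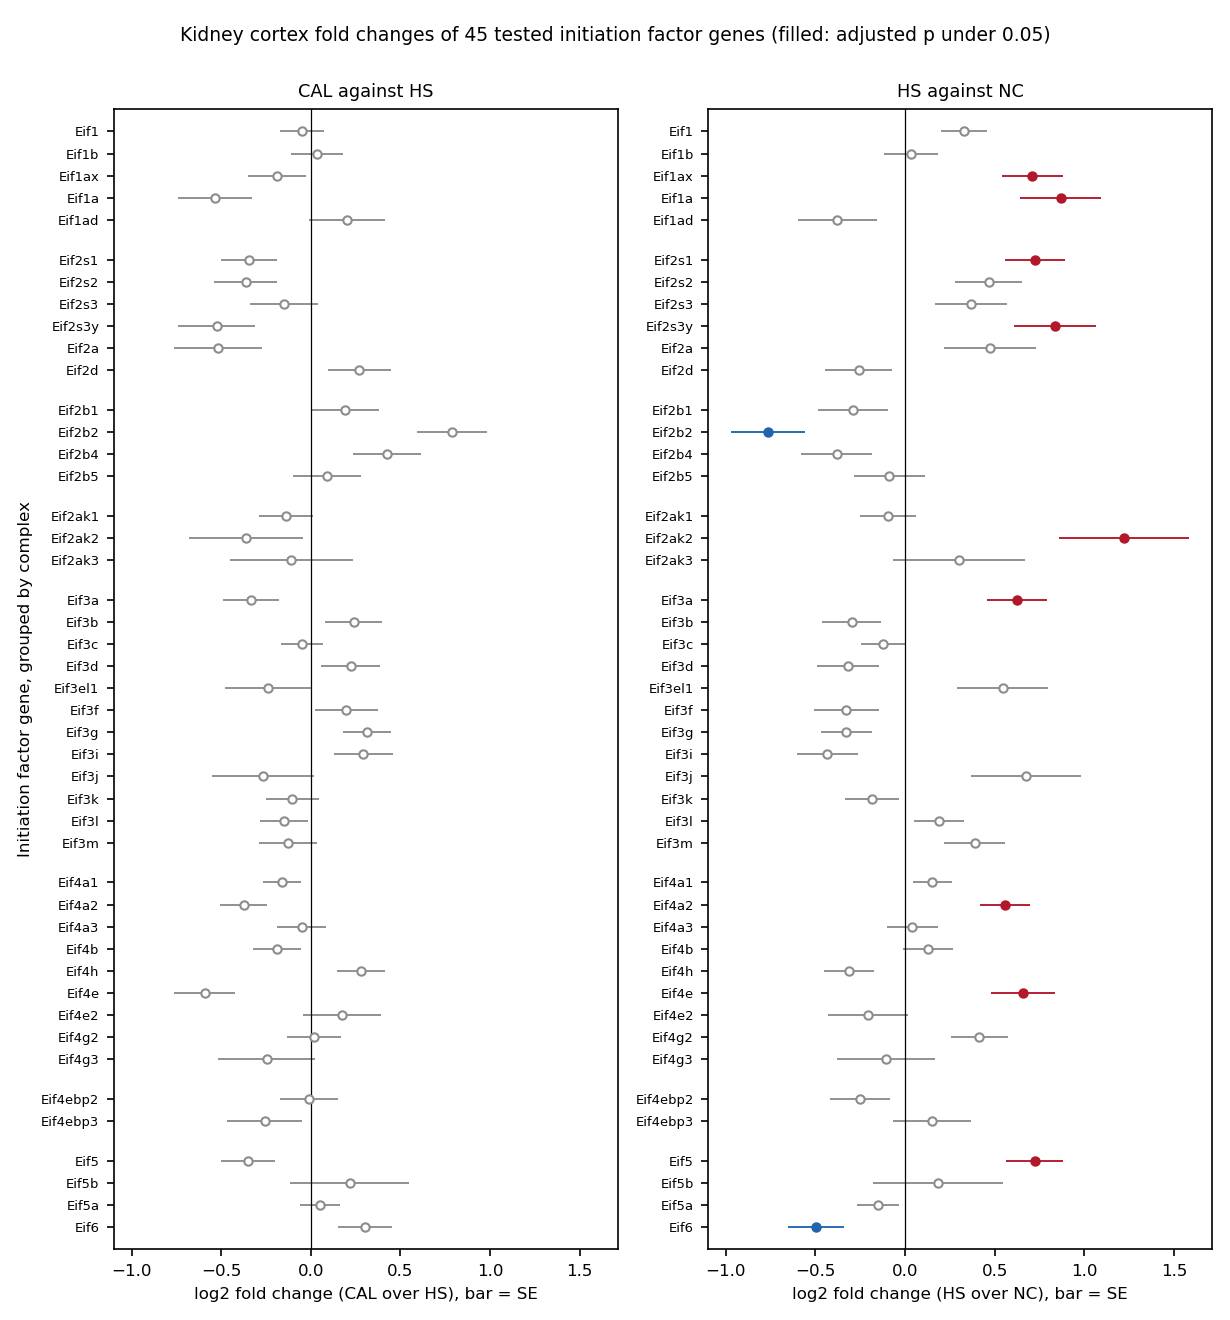
Log2 fold changes with SE bars of 45 tested initiation factor genes in kidney cortex, grouped by complex, for CAL over HS on the left and HS over NC on the right. Filled points have an adjusted p under 0.05, red higher and blue lower. There are 0 filled points for CAL over HS and 11 for HS over NC, and the HS libraries enter both panels.

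Against NC, the CAL cortex libraries also gave 0 of 45 genes past the threshold, where 0% of all genes tested passed. Unadjusted, 7 of the 45 were under 0.05, 6 higher and 1 lower, against 11.9% of all genes, and DESeq2 and voom each called 0 of the 45. The smallest p belonged to Eif1ax, at 0.52 (SE 0.15, adjusted p = 0.186), followed by Eif4g2 at 0.43 (SE 0.14, adjusted p = 0.235) and Eif2ak2 at 0.86 (SE 0.33, adjusted p = 0.295). CAL replicate 6 had the lowest Eif1ax level of its group, 74.8 CPM, and without it the adjusted p of Eif1ax was 0.0294. Eif4e and Eif2b2 were close to NC, at 0.06 (SE 0.16) and 0.02 (SE 0.16). The mTORC1 list was the only one with a gene past the threshold in CAL against HS, Lamtor1 at 0.67 (adjusted p = 0.0450), and in CAL against NC no listed gene passed.

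In the colon no initiation factor gene passed the threshold in any comparison. Of the 52 genes, 48 were tested. Between HS and NC, 0 of 48 passed, as did 0% of all 7217 genes tested, and 5 of 48 had an unadjusted p under 0.05, against 8.51% of all genes. Between CAL and HS, 0 of 48 passed against 0.0139% of all genes, and 4 had an unadjusted p under 0.05 against 10.5%. Between CAL and NC, 0 of 48 passed against 0% of all genes, and 3 had an unadjusted p under 0.05 against 3.85%. DESeq2 and voom called 0 of the 48 in each comparison. These counts stayed at 0 with each library left out in turn and with HS replicates 3 and 4, the libraries high in immune markers, left out together.

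Colon eIF3 genes shared a direction between HS and NC. All 12 had a positive log2 fold change of HS over NC, from 0.08 to 0.62 with a median of 0.26, against a median of 0.04 over all genes tested, and none passed. The 4 tested eIF2B genes were also all positive, from 0.08 to 0.64, and 54.2% of all genes tested were positive. Eif3d, a subunit that can bind the cap, had 79.4, 130, 113, 139 and 109 CPM in HS and 95.9, 73.9, 80.0, 51.3 and 70.1 CPM in NC. HS replicate 1 fell among the NC libraries (log2 fold change 0.62, SE 0.23, adjusted p = 0.492). Eif3i and Eif3l had the next smallest p, at 0.56 (SE 0.23, adjusted p = 0.524) and 0.49 (SE 0.22, adjusted p = 0.562). In CAL against HS, which uses the same HS libraries, 11 of the 12 eIF3 genes were negative, as were the 3 tested genes of eIF4E-binding proteins. Of all genes tested in CAL against HS, 47.0% were positive. Between CAL and NC colon, 8 of the 12 eIF3 genes were positive and 4 negative, with a median of 0.04. Eif3a had 65.3 to 117 CPM in CAL with a median of 97.9 CPM and 166, 117, 127, 144 and 146 CPM in HS, which met at the edge (log2 fold change -0.58, SE 0.19, adjusted p = 0.345). Eif4a3, the helicase of the exon junction complex, followed at -0.67 (SE 0.25, adjusted p = 0.346), then Eif3d at -0.50 (adjusted p = 0.432).

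Between CAL and NC colon the smallest p were those of Eif3i at 0.64 (SE 0.22), Eif3a at -0.49 (SE 0.19) and Eif2ak2 at 0.69 (SE 0.29), with adjusted p rounding to 1 for each. Eif2ak2 had 24.9 to 63.1 CPM in CAL with a median of 44.3 CPM and 14.8, 33.0, 33.1, 22.4 and 30.1 CPM in NC, and the groups overlapped. For the genes that differed between HS and NC cortex, the HS and NC colon groups overlapped, as they did for all 48 tested members. The share of all colon genes that overlapped was not counted, so no contrast between the tissues is read from this. Eif4e had 125, 144, 122, 52.1 and 123 CPM in HS colon and 86.7, 92.7, 119, 113 and 93.5 CPM in NC colon, with HS replicate 4 far below the rest (log2 fold change 0.17, SE 0.25, adjusted p = 0.914). Eif2s1 stood at 0.12 (adjusted p = 0.949), Eif5 at 0.07 (adjusted p = 0.963), Eif6 at 0.01 (adjusted p = 0.991) and Eif2b2 at 0.11 (adjusted p = 0.951). For Eif2s1 the SE was 0.17 in the cortex and 0.25 in the colon, so that a change of the cortex size was harder to detect in the colon.

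Whether the salt response differed between tissues was tested in 1 fit over all 31 libraries. For HS against NC, cortex minus colon, 0 of 49 tested genes passed, against 0.0219% of 9128 genes, and 12 of 49 had an unadjusted p under 0.05, against 13.4% of all genes. DESeq2 and voom called 0 of the 49. Eif3i had the smallest p, with a difference in log2 fold change of -1.02 (SE 0.29, adjusted p = 0.142), followed by Eif3d at -0.98 (SE 0.29, adjusted p = 0.154) and Eif2b2 at -0.89 (SE 0.31, adjusted p = 0.208). Without HS colon replicate 1 the adjusted p of Eif3d was 0.0499. Eif2s1 differed by 0.59 and Eif5 by 0.63, neither past the threshold, so their cortex changes are not shown to be particular to the cortex. For CAL against HS, cortex minus colon, 0 of 49 passed against 0% of all genes, and 7 had an unadjusted p under 0.05, against 9.62%. Again DESeq2 and voom called 0. The smallest p were those of Eif2b2 at 0.87 (adjusted p = 0.337), Eif3d at 0.72 (adjusted p = 0.400) and Eif2ak2 at -0.98 (adjusted p = 0.454).

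Between the control tissues, initiation factor genes differed less often than genes at large. In the control libraries 20 of 49 tested genes (40.8%) differed between cortex and colon, 6 higher and 14 lower in the cortex, against 58.8% of all genes tested, of which 28.4% were higher and 30.4% lower. With median-ratio scaling the split was 9 higher and 11 lower. The median log2 fold change was -0.26 over the 49 genes and -0.06 over all genes tested. Levels in this comparison are CPM scaled over both tissues. Epithelial, muscle and blood markers also differ between these organs, and of 13 tested immune markers 9 were lower and 0 higher in the cortex. What part cell makeup has in the values below was not tested.

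The 4 eIF2 kinase genes and 2 of 3 tested genes of eIF4E-binding proteins were lower in the cortex. The kinase genes had log2 fold changes of -1.26 for Eif2ak4 (SE 0.40), -1.14 for Eif2ak3 (SE 0.34), -1.13 for Eif2ak2 (SE 0.33) and -0.43 for Eif2ak1 (SE 0.18). Eif2ak4 had 5.84, 10.9, 3.65, 10.1 and 8.53 CPM in NC cortex and 21.2, 13.5, 15.6, 27.8 and 17.5 CPM in NC colon, and the tissues did not overlap (adjusted p = 0.00803). Eif4ebp1, the best-known mTORC1-controlled inhibitor of eIF4E, had 10.2, 11.8, 16.4, 14.1 and 8.53 CPM in NC cortex and 47.7, 56.9, 67.4, 42.9 and 58.9 CPM in NC colon. Every cortex library lay far below every colon library, at a log2 fold change of -2.15 (SE 0.32, adjusted p = 5.33e-07), the largest of the 49. Eif4ebp3 followed at -1.61 (SE 0.29, adjusted p = 1.09e-05), while Eif4ebp2 was at 0.52 and did not pass.

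**Figure D4:**
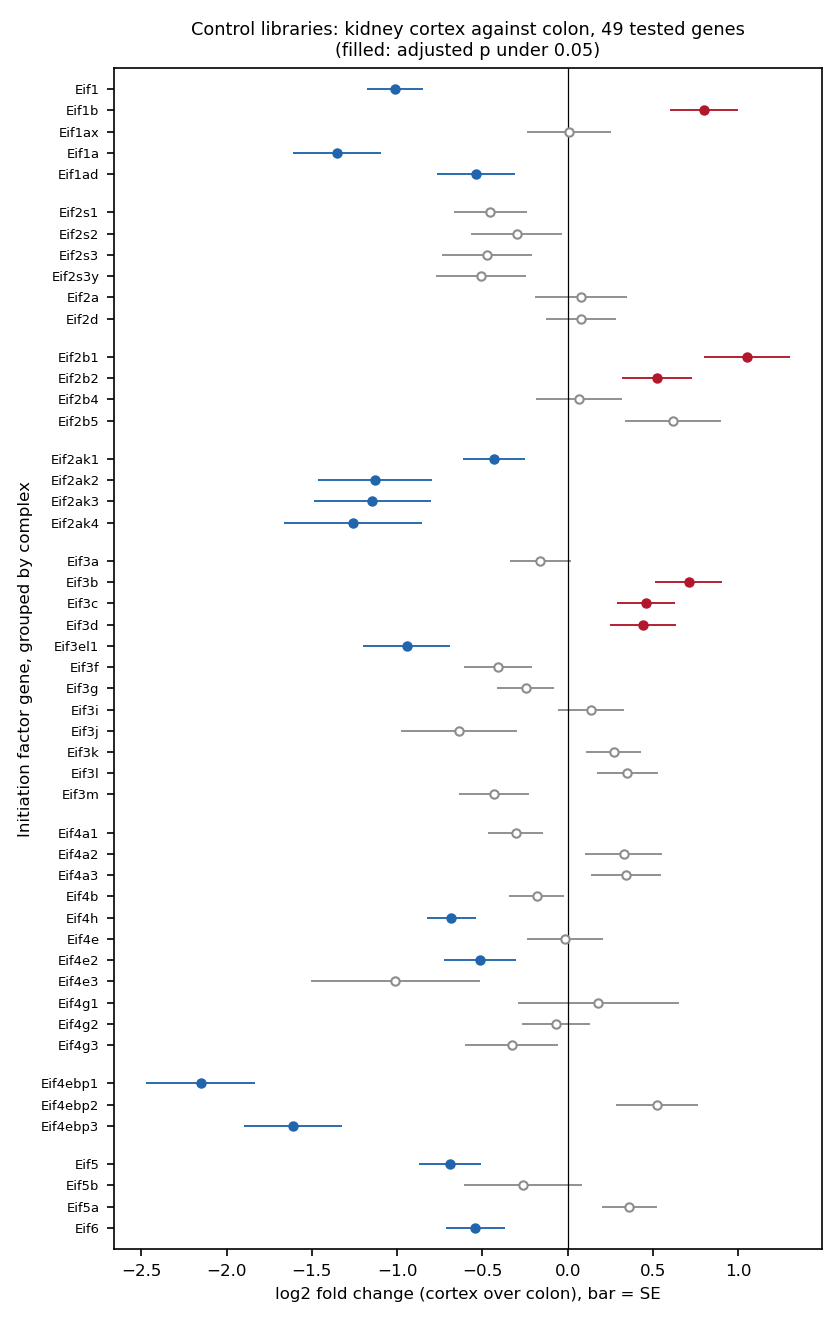
Log2 fold changes with SE bars of kidney cortex over colon in the NC libraries (5 of each tissue) for 49 tested initiation factor genes, grouped by complex. Filled points have an adjusted p under 0.05, with 6 red points higher in the cortex and 14 blue points lower. The eIF2 kinases and Eif4ebp1 lie to the left, and the tested eIF2B genes to the right of 0.

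Start-codon factors were split between the tissues, with 1 of the 5 eIF1 and eIF1A genes higher and 3 lower in the cortex. Eif1 had 242, 315, 293, 344 and 268 CPM in NC cortex and 512, 600, 542, 528 and 767 CPM in NC colon, without overlap (log2 fold change -1.01, SE 0.17, adjusted p = 2.81e-06). Its paralog Eif1b went the other way, with 102, 89.9, 76.6, 101 and 106 CPM in NC cortex and 54.8, 43.4, 38.9, 65.6 and 66.9 CPM in NC colon (log2 fold change 0.80, SE 0.20, adjusted p = 8.35e-04). Eif1a was lower in the cortex at -1.35 (SE 0.26), with the caution on its close copy Eif1ax, which stood at 0.01. The eIF2B genes were on the higher side. Eif2b1, the gene of the alpha subunit, had 77.4, 59.9, 58.3, 62.3 and 66.5 CPM in NC cortex and 40.6, 32.9, 28.5, 40.4 and 12.7 CPM in NC colon, which did not overlap (log2 fold change 1.05, SE 0.25, adjusted p = 5.83e-04). Eif2b2 was at 0.52 (SE 0.20, adjusted p = 0.0273), a call lost without NC cortex replicate 2 or 4, without NC colon replicate 2 or 5, and after thinning (adjusted p = 0.145).

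The 3 eIF3 genes Eif3b, Eif3c and Eif3d were higher in the cortex, at 0.71 (adjusted p = 0.00228), 0.46 (adjusted p = 0.0207) and 0.44 (adjusted p = 0.0498), and the Eif3e-like gene Eif3el1 was lower at -0.94. The call of Eif3d was lost in 7 of 10 fits that left out 1 library, keeping it only without NC cortex replicate 2 or 5 or NC colon replicate 1, and that of Eif3c without NC colon replicate 1 or 5. After thinning neither passed (adjusted p = 0.159 and 0.233), and Eif3d did not pass without the low-count filter (adjusted p = 0.0823). Of the 4 tested genes of the eIF5, eIF5B, eIF5A and eIF6 group, 2 were lower and 0 higher in the cortex, with log2 fold changes down to -0.69. Eif6 was lower at -0.54 (SE 0.17, adjusted p = 0.00698). Eif5 had 93.5, 149, 109, 117 and 99.0 CPM in NC cortex and 154, 214, 166, 196 and 188 CPM in NC colon, without overlap. Of the 11 tested cap and helicase genes, 2 were lower and 0 higher in the cortex. The core cap factors were not among them, with Eif4e at -0.01 (SE 0.22), Eif4a1 at -0.30 (SE 0.16), Eif4a2 at 0.33 (SE 0.23), Eif4g1 at 0.18 (SE 0.47) and Eif4g2 at -0.07 (SE 0.20). Eif2s1 and Eif5a were at -0.45 (adjusted p = 0.0678) and 0.36 (adjusted p = 0.0522). Eif5a passed with DESeq2 (adjusted p = 0.0124), voom weights (0.00388), median-ratio scaling (0.0323), the 1 CPM filter (0.0376) and without HS colon replicates 3 and 4 (0.0404). Eif2s1 passed without HS colon replicates 3 and 4 (adjusted p = 0.0426) or without NC colon replicate 3 (0.0313), and Eif4a1 with voom weights (0.0351). On the other lists, 10 of 21 initiation regulators were lower and 0 higher in the cortex, led by Ppp1cb at -2.56 and Pabpc1, the poly(A)-binding protein gene, at -1.29. Of 20 mTORC1 genes 7 were higher and 1 lower, among them the arginine sensor gene Castor1 at 3.17. Elongation and termination genes had 3 higher and 6 lower of 12, stress response targets 5 higher and 5 lower of 15, and tRNA synthetase genes 6 higher and 3 lower of 22. These counts stand beside the 28.4% of all genes that were higher and the 30.4% that were lower in the cortex.

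Some members could not be followed. The deposited counts hold no gene under the symbols Eif3e or Eif3h, and Eif3el1 is an Eif3e-like entry. Eif2b3, Eif4enif1 and Eif5a2 had too few reads to be tested in either tissue or in the joint fit, and Eif4g1 in either tissue alone. In the cortex Eif2ak4, Eif4e3 and Eif4ebp1 failed the filter as well. RefSeq names 74 pseudogenes after 26 of the 52 genes, with 11 for Eif5 and 10 for Eif4e, and reads may be shared with such copies. The library kit does not mark strand, so reads of overlapping antisense transcripts would be counted with a gene.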

How the data were processed

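RNA of kidney cortex and colon was sequenced on a NextSeq 500, per the labels. Per the submitters' processing notes, the tools were FastQC 0.11.9, Trimmomatic 0.39, HISAT2 2.1.0 and featureCounts 1.6.5, and the genome build Rnor_6.0. The annotation and strand setting are not given in the sources used here. The deposited values are raw counts per gene symbol, not normalised by the authors.

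Counts were fitted per tissue to the 3 groups, and to 6 groups over both tissues, using edgeR 4.0.16 (quasi-likelihood test, R 4.3.3), TMM scaling and the edgeR filter (minimum count 10, minimum total 15). P-values were adjusted by Benjamini-Hochberg over all genes tested, with a threshold of 0.05. SEs came from the quasi-likelihood F, and levels are TMM-scaled CPM. The same code was tested on simulated data. DESeq2 1.42.0 and voom (limma 3.58.1) were among the alternatives, and thinning to the shallowest library was added after seeing the data. Thinning used a single random draw per fit, so the spread between draws is not known. Of 66 pairs of libraries within groups, 0 were identical.

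The members, the 5 lists and the complexes were chosen with earlier results of these data known. Named are the members past the threshold in a comparison, or the 3 with the smallest p where none passed. Between control tissues these are the 6 with the largest fold change each way. A fixed set of 12 core members (Eif1, Eif2s1, Eif2ak3, Eif2ak4, Eif4e, Eif4ebp1, Eif4g1, Eif4g2, Eif4a1, Eif4a2, Eif5a and Eif6) was always followed, and up to 4 genes per list and comparison. Other members of a complex were named for comparison after their values were seen.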

Additional observations from a re-analysis of the deposited data

Results flagged for a closer look

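Levels of the named genes were screened in each group for a library far from the others, and 4 of 99 groups were picked out, where chance gives about 1 in 20. In CAL cortex, replicate 6 had 74.8 CPM of Eif1ax, and the other 5 libraries had 129 to 150 CPM. In NC colon, replicate 4 had 208 CPM of Eif4a2, against 290 to 314 CPM in the other libraries, and replicate 5 had 286 CPM of Eif4g2, against 218 to 233 CPM. In HS colon, replicate 4 had 52.1 CPM of Eif4e, against 122 to 144 CPM in the other libraries. No gene of the family had a salt or calcitriol response that differed between tissues past the threshold.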

How the results depend on the processing

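For HS against NC cortex the count of 11 genes was 11 to 12 under median-ratio scaling, DESeq2, either change of the low-count filter, voom weights and the replicate block. After thinning to the shallowest library it was 7 (4 higher, 3 lower, 6 of them among the 11), with 412 in place of 831 calls over all genes, and with each library left out in turn it ran from 2 to 11. For CAL against HS cortex the count of 0 became 1 with DESeq2 and 1 without the filter, both times Eif2b2, and ran from 0 to 1 with libraries left out. For CAL against NC cortex it ran from 0 to 1 with libraries left out. The control tissue count of 20 ran from 16 to 22 with libraries left out and from 16 to 28 otherwise, and the tissue difference in HS against NC from 0 to 1. The cause of these shifts was not tested. Colon counts were 0 throughout. Of 2611 refits of 130 named values, 2533 stayed on the same side of the threshold with no called value changing sign, 47 lost and 16 gained the call, and 14 had no DESeq2 adjusted p. Of the 130 values, 51 were smaller than their own SE, and 34 of those changed sign in some refit, which the 2533 include, never with an adjusted p below 0.636. Eif1 in CAL against HS colon turned to -0.026 without HS colon replicates 3 and 4. Counts over all genes moved further: without the filter, 128 genes passed in CAL against HS cortex and 83 in CAL against NC cortex.

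The labels do not say whether replicate numbers pair libraries, and same-numbered libraries correlated over 0.1 in 0 of 13 cortex, 4 of 15 colon and 1 of 15 joint pairs, so they were not treated as pairs. In the joint fit 19 of 30 libraries correlated best with their own number, among 4 to 6 libraries of the same treatment in the other tissue. That is more than an even pick would give, though a hint from the data only. The main joint fit took the tissues as independent, so its p-values may rest on related libraries. With the replicate block, CAL against NC cortex gave 1 gene, Eif1ax (adjusted p = 0.0267), the control tissue call of Eif3d was lost (adjusted p = 0.0523), and every other count of family members stayed within 1.5 times. Depth limits the low members, such as Eif2ak2, Eif2ak4 and Eif4g1.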
